A study of Rattus norvegicus with 2 samples.

Results

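The genes of B cell identity and of signaling through the B cell antigen receptor were examined in the spleen of rats given cocaine. The list held 35 genes, chosen as markers of B cells, parts of the receptor pathway or genes of the germinal centre, and 32 of them were found among the 15037 named genes of the array. For 3 members no value is analysed here. Each gene was measured as 1 transcript cluster, which is a set of short probes for the transcripts of a gene on a Clariom S rat array. Total RNA came from the spleen of 1 male Sprague-Dawley rat given cocaine intraperitoneally (50 mg/kg) once daily for 7 days, and of 1 male control rat, as the series design gives them. Both were in late adolescence when dosing started and were killed the day after the last injection. The control was taken from its title, No Stimulation, and from the series design. Its protocol label states the same cocaine dosing as that of the cocaine rat, whereas the methods of the study describe saline injections for control rats.

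B cells fill the follicles and the marginal zone of the splenic white pulp. Their antigen receptor is a membrane antibody paired with a signaling dimer, of which Cd79b is a chain. When antigen is bound, kinases of the Src family and Syk phosphorylate this dimer and the adaptor Blnk, and Btk and Plcg2 then release calcium. Inhibitory receptors such as Cd22, Cd72 and Fcgr2b recruit phosphatases that end the signal. Pax5 and Ebf1 hold the cells in the B lineage, and Bcl6 directs the germinal centre, where receptors are mutated and selected.

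Values are log2 signals as deposited, and a difference is the signal of the cocaine rat minus that of the control rat, taken before rounding. A value of 1 thus stands for a signal 2 times as high after cocaine. Each group was a single animal on 1 array, and the values therefore carry neither an error nor a p-value. The highest of 23 background features had a signal of 7.76 on both arrays, and 31 of the 32 genes lay above it on both. The exception was S1pr2, a receptor that holds B cells in the germinal centre, with 5.85 after cocaine against 5.49. Its difference of 0.37 is not interpreted. No member was at the highest signal of its array (19.69 after cocaine and 19.89 in the control), and saturation below this signal was not tested.

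The B cell genes were mostly close to equal in the 2 spleens, with a slight lean to the cocaine rat. Their median difference was 0.19, against 0.04 for all named genes, and the differences ran from -0.93 (Fcer2) to 1.37 (Bank1). After a loess correction for the trend of the difference with mean signal, the median of the B cell genes was 0.10. They were also brighter than most genes, with median signals of 12.99 after cocaine and 12.69 in the control. Over all named genes these medians were 7.3 and 7.34. The part of signal strength in the lean was not tested. In 14 B cell genes the signals were within 0.25 of each other, and in 23 within 0.5. In the cocaine rat 4 of 32 genes were past 2-fold on the higher side, Bank1, Fcgr2b, Syk and Cd83, against 2.28% of all named genes. None was at least 2-fold lower, against 4.97% of all named genes. Since nearly all of the B cell genes lay above the background features, these shares were also taken without weak genes. Among the 7197 named genes above the highest background feature on either array, 2.65% were past 2-fold on the higher side and 8.86% on the lower side, and 50.0% had a difference above 0. Of the 31 B cell genes above this feature, 22 had a difference above 0 and 9 below 0.

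**Figure D1:**
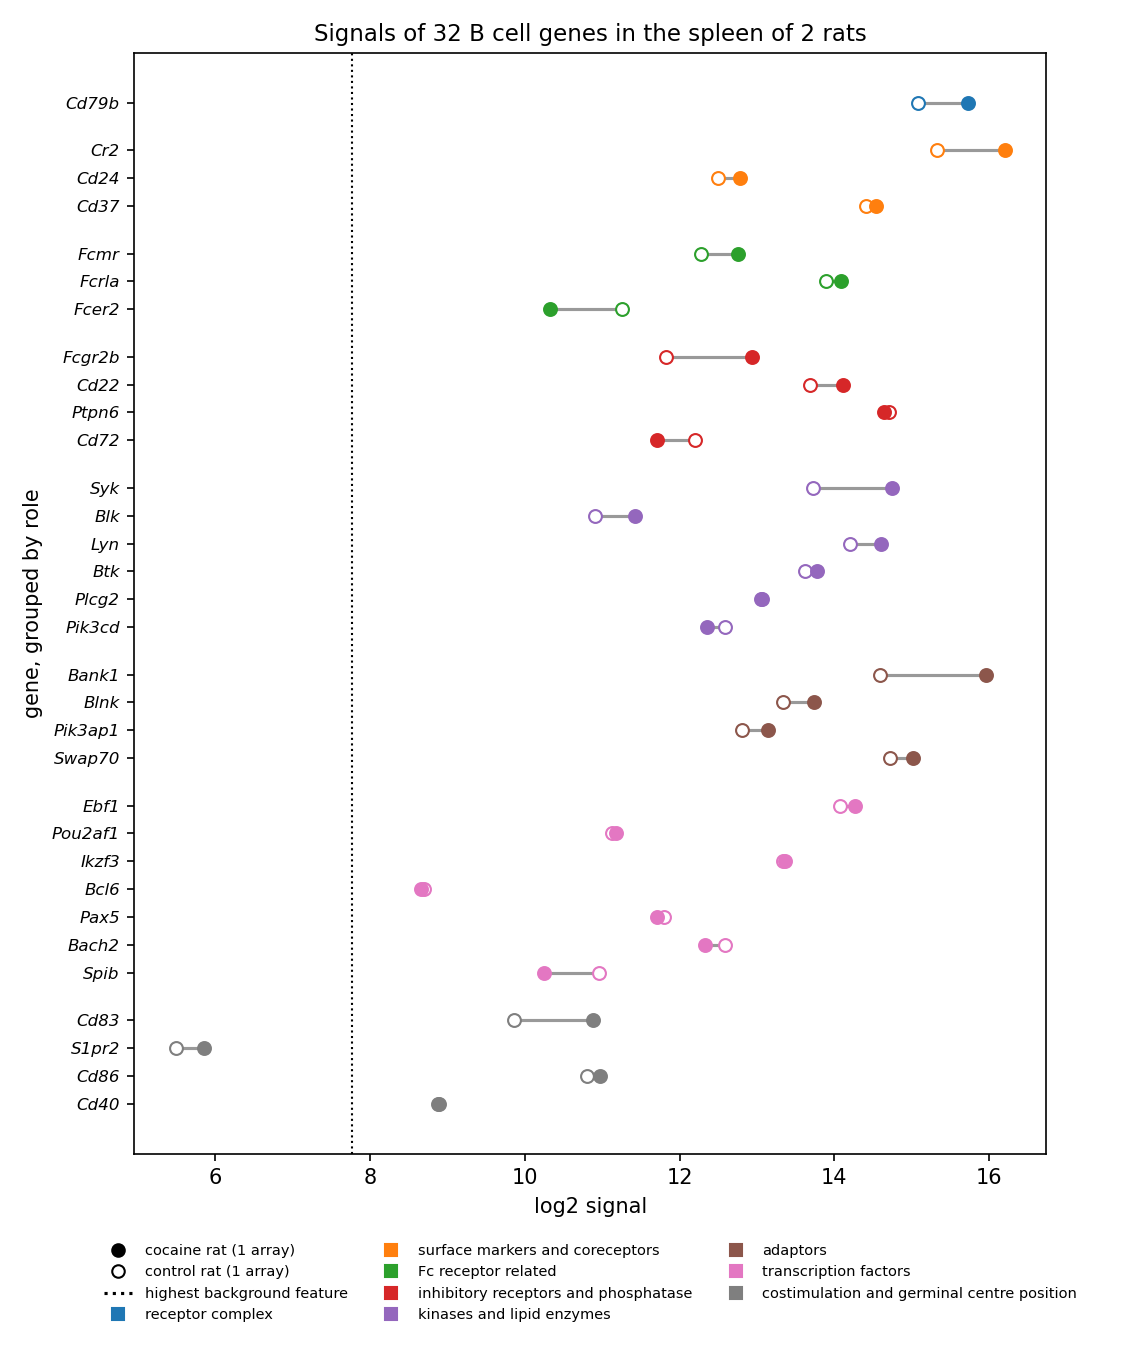
Log2 signal (horizontal axis) of the 32 measured genes (vertical axis), grouped and colored by role, with filled points for the cocaine rat, open points for the control rat, 1 array each, and a dotted line at the highest background feature (7.76). Bank1, Fcgr2b, Syk and Cd83 have the longest lines toward the cocaine rat, Fcer2 and Spib have the longest toward the control rat, and only S1pr2 lies below the dotted line.

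Bank1 had the largest difference of the list. It encodes a scaffold that links the receptor to Lyn and to calcium release, and its signal of 15.96 after cocaine stood against 14.59 in the control, a 2.59-fold difference that ranked 66 from the highest of 15037 named genes. Fcgr2b, the inhibitory receptor for IgG, had signals of 12.93 and 11.82 and was 2.17-fold higher. It is also carried by macrophages and by follicular dendritic cells, which hold antigen for B cells. Syk, the kinase that docks on the phosphorylated receptor dimer and is widely used by blood cells, had signals of 14.75 and 13.72 and was 2.05-fold higher. After the loess correction for mean signal its difference was 0.89 and it was no longer past 2-fold. Cd83, a surface protein of activated B cells and mature dendritic cells, had signals of 10.88 and 9.86 and was 2.04-fold higher. Its difference after the loess correction was 1 in rounded values, at the limit. Syk (1.04) and Cd83 (1.03) thus lay just past the 2-fold limit as deposited, and Cr2 (0.88) and Fcer2 (-0.93) were the nearest that did not reach it. Of these 4 higher genes only Bank1 belonged to the 14 measured genes of mostly B cell expression, and the other 3 belonged to the 18 that other leukocytes also use.

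The regions around the transcription start of 3 of these 4 genes were available (RefSeq, GRCr8, 250 bases before to 50 after a start), and they are shown because these genes were the ones past 2-fold. They are chr2:227473666-227473965 for Bank1, chr17:21112628-21112927 for Cd83 and chr17:12813224-12813523 for Syk, each on the minus strand and written 5′ to 3′ along the gene. The start is the one of the RefSeq table, and a gene can have others. Capitals mark the core GAGGAA, which is bound by factors of the ETS family such as Spib, or the octamer ATTTGCAT, at which Pou2af1 acts as a coactivator. Both motifs were searched on both strands and do not overlap.
Bank1: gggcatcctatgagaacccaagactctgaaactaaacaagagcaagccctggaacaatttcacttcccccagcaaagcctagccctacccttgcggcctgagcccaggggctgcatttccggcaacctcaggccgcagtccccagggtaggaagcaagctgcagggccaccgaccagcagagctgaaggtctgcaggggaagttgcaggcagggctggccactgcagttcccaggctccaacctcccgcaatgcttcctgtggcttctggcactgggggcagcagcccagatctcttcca
Cd83: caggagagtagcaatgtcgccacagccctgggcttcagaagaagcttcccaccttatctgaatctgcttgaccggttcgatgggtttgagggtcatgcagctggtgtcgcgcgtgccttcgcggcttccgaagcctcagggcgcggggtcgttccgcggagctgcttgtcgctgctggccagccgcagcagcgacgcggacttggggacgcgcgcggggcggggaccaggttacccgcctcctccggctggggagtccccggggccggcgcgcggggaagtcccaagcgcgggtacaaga
Syk: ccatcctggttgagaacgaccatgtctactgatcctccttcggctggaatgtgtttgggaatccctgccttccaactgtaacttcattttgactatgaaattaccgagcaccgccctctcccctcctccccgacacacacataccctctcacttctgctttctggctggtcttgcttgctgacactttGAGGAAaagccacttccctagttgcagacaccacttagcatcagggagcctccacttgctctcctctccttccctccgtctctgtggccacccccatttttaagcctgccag
The core was found in Syk, beginning at position -62 from the start, and neither motif was found in the windows of Bank1 and Cd83. The content of G and C was 60.7% in Bank1, 68.0% in Cd83 and 53.0% in Syk, against a median of 51.7% for all windows. Of 22 measured B cell genes with a window, 10 (45.5%) held the core, against 27.6% of all 33469 windows. The 33469 windows were not limited to genes measured on the array, and the difference in share was not tested. These 10 were Btk, Cd22, Cd37, Cd86, Fcmr, Fcrla, Pik3ap1, Plcg2, Swap70 and Syk, of which only Syk was past 2-fold. The octamer was found in 1 of the 22 genes, against 1.78% of all windows. This gene was Blnk, and the octamer with 20 bases on either side (chr1:249770695-249770742, minus strand) is shown as the only match of the list.
Blnk: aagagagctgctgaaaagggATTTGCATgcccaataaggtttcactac

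Of the antigen receptor 1 chain was measured, and of the surface markers and coreceptors 3 genes. Cd79b, a signaling chain of the receptor, had signals of 15.72 after cocaine and 15.08 in the control, a 1.55-fold difference. Cr2, the complement receptor that lowers the threshold of the B cell for antigen coated with complement, had signals of 16.20 and 15.32 and was 1.84-fold higher. Cr2 is abundant on marginal zone B cells and is also made by follicular dendritic cells. Cd81, a tetraspanin of many cells that joins Cr2 in the coreceptor and is no member, had signals of 13.88 and 14.30 (-0.42) and was named after its value was seen. The tetraspanin Cd37 (14.54 and 14.41) and the glycoprotein Cd24 (12.78 and 12.49) differed by 0.13 and 0.29. In mice, Cd24 is carried by red cells as well. The difference of Cd37 was -0.03 after the loess correction, so that no direction can be given for it.

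The Fc receptors and related proteins differed in direction. Fcer2, the low-affinity receptor for IgE and a marker of follicular B cells, had signals of 10.32 after cocaine and 11.25 in the control. This was the lowest difference of the list (-0.93, 1.91-fold lower), and no other member came as close to 2-fold in this direction. Fcmr, the receptor for IgM, had signals of 12.76 and 12.27, a difference of 0.49. Fcrla, a relative of the Fc receptors that stays inside B cells, had signals of 14.08 and 13.89, a difference of 0.20.

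The inhibitory receptors did not move together. Beside Fcgr2b (1.12), the sialic acid receptor Cd22 had signals of 14.11 and 13.69, a difference of 0.41. Cd72, a lectin that binds the phosphatase Ptpn6, had signals of 11.71 and 12.20, a difference of -0.49. Ptpn6 itself, which is also known as SHP-1 and acts in all leukocytes, had nearly equal signals (14.64 and 14.70). Its difference of -0.05 turned to 0.04 with 75th percentile centring and with quantile normalization.

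The 6 kinases and lipid enzymes had a median difference of 0.28, with Syk (1.04) as the only gene past 2-fold. Lyn, the main Src family kinase of B cells and also a kinase of myeloid cells, had signals of 14.60 and 14.20, a difference of 0.40. Blk, a Src family kinase of B cells, had signals of 11.42 and 10.90, a difference of 0.51. After the loess correction the difference of Lyn was 0.25. Btk, which activates Plcg2, had signals of 13.78 and 13.62 (0.16). Plcg2, the phospholipase that produces the calcium signal, had signals of 13.05 and 13.07 (-0.02, and 0.07 with 75th percentile centring and with quantile normalization). Pik3cd, the catalytic subunit of the PI3 kinase of leukocytes, had signals of 12.35 and 12.59 (-0.23, and -0.30 after the loess correction).

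All 4 adaptors had higher signals in the cocaine rat. Next to Bank1, Blnk, which assembles Btk and Plcg2, had signals of 13.74 and 13.33, a difference of 0.42. Pik3ap1, which brings PI3 kinase to the receptor, had signals of 13.14 and 12.80 (0.34), and Swap70, a regulator of the cytoskeleton in B cells, had signals of 15.02 and 14.72 (0.30). The 3 adaptors other than Bank1 were thus less than 1.5-fold higher. After the loess correction their differences were 0.31 for Blnk, 0.26 for Pik3ap1 and 0.13 for Swap70.

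The transcription factors of B cells had a median difference of -0.04 over 7 genes, and none was past 2-fold. Pax5, which maintains B cell identity, had signals of 11.71 and 11.80 (-0.09, and 0.03 with quantile normalization). Ebf1, which specifies the lineage, had signals of 14.26 and 14.07 (0.19). For the coactivator Pou2af1 the signals were 11.18 and 11.12 (0.06). Ikzf3, or Aiolos, a factor of lymphocytes, had signals of 13.36 and 13.34 (0.03, and -0.07 after the loess correction). These 4 factors were within 0.2 of equality. Bach2, which delays plasma cell formation, had signals of 12.33 and 12.58 (-0.24). Bcl6 had signals of 8.66 and 8.70 (-0.04, and 0.05 or 0.07 with 75th percentile centring or quantile normalization). Spib, a factor of the ETS family in B cells and plasmacytoid dendritic cells, was the exception, with signals of 10.25 after cocaine and 10.96 in the control, 1.64-fold lower. Fcer2 and Spib were the only members at least 1.5-fold lower, while 6 members were at least 1.5-fold higher (Bank1, Fcgr2b, Syk, Cd83, Cr2 and Cd79b).

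The receptors through which B cells and T cells meet differed little, apart from Cd83. Cd40, which receives the signal of helper T cells, had signals of 8.89 and 8.88 (0.02). Cd86, a ligand for the T cell receptor Cd28 on B cells and other cells that present antigen, had signals of 10.97 and 10.80 (0.17).

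**Figure D2:**
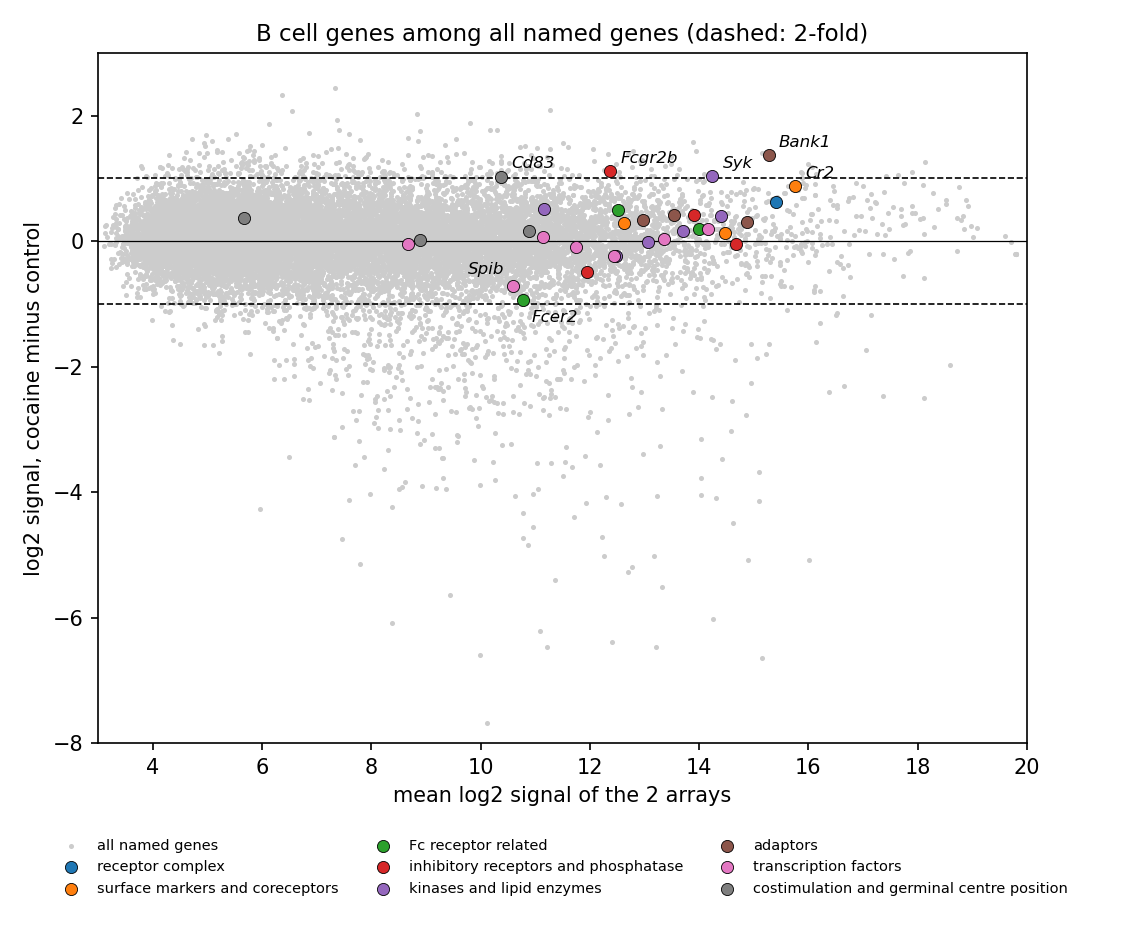
Difference of the log2 signals (cocaine minus control, vertical axis) against the mean log2 signal of the 2 arrays (horizontal axis), with the 32 B cell genes colored by role over all 15037 named genes in gray and dashed lines at 2-fold. The B cell genes lie between -0.93 and 1.37, and Bank1, Fcgr2b, Syk and Cd83 lie above the upper dashed line.

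Further genes of the receptor pathway, which were not members, ran from -0.51 to 0.85. Of 36 measured, none was past 2-fold in either direction, and the median was 0.15. The largest differences were those of the adaptor Lat2 (0.85, 9.43 against 8.58), of the ubiquitin ligase Cblb (0.54, 12.34 against 11.80) and of the transcription factor Foxo1 (-0.51, 13.25 against 13.76). Of 13 genes of homing to follicles and the marginal zone, 1 was at least 2-fold higher and none lower, and 12 had a difference above 0, with a median of 0.25. This gene was Ccr6, a chemokine receptor of B cells and other leukocytes, with signals of 12.94 and 11.84 (2.15-fold). Ltb, a cytokine subunit that maintains follicles, had a difference of 0.77. The difference of S1pr1, which guides lymphocytes out of the tissue, was 0.69, with the signal of the control rat (7.54) under the highest background feature.

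Germinal centre genes outside the list were mostly weak. Of 10 measured, 4 lay above the highest background feature, and their differences were 0.23 for Irf8, a factor of B and myeloid cells, -0.05 for the G protein Gna13 and -0.05 for the interleukin receptor Il21r, which was named after its value was seen. The fourth was Ezh2, a histone methyltransferase of dividing cells, with signals of 10.25 and 11.58 (2.52-fold lower). Beside it, all 9 measured markers of cell division were past 2-fold on the lower side (median -2.75). The part of dividing cells in the value of Ezh2 was not tested. Of 7 genes of B cell precursors none was past 2-fold, the median was -0.01 and 3 lay above the background on both arrays. Il7r, which mature T cells also carry, had a difference of 0.61, and Rag1 (-0.09) and Cd93 (0.01) lay at or near the background.

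The genes that follow B cells in their development or surround them were higher in part. The 9 plasma cell markers had a median of 0.78. Their differences ran from -0.63 to 1.51, with 6 above 0 and 3 below 0. Only 5 of the 9 lay above the highest background feature on both arrays. None of the 9 was past 2-fold on the lower side, and 3 of those 5 were past it on the higher side. These were Creld2 (1.51) and Txndc5 (1.18), which act in protein folding in the endoplasmic reticulum of many cells, and Mzb1 (1.04), which assists antibody secretion. Genes of the stroma of the white pulp had a median of 0.79 over 7 genes, of which 4 lay above the background. Those 4 were the chemokines Ccl21 (1.40, 15.84 against 14.44), Ccl19 (1.36, 9.79 against 8.42) and Cxcl13 (0.84, 15.42 against 14.58), and Clu (0.79), a gene of follicular dendritic cells that was named after its value was seen. Ccl21 and Ccl19 are made by reticular cells of the T cell zone, and Cxcl13, which attracts B cells, by stroma of the follicles. The values of Clu and Cxcl13 stand beside those of Cr2 and Fcgr2b, which follicular dendritic cells also express, and the part of these cells in the values was not tested.

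**Figure D3:**
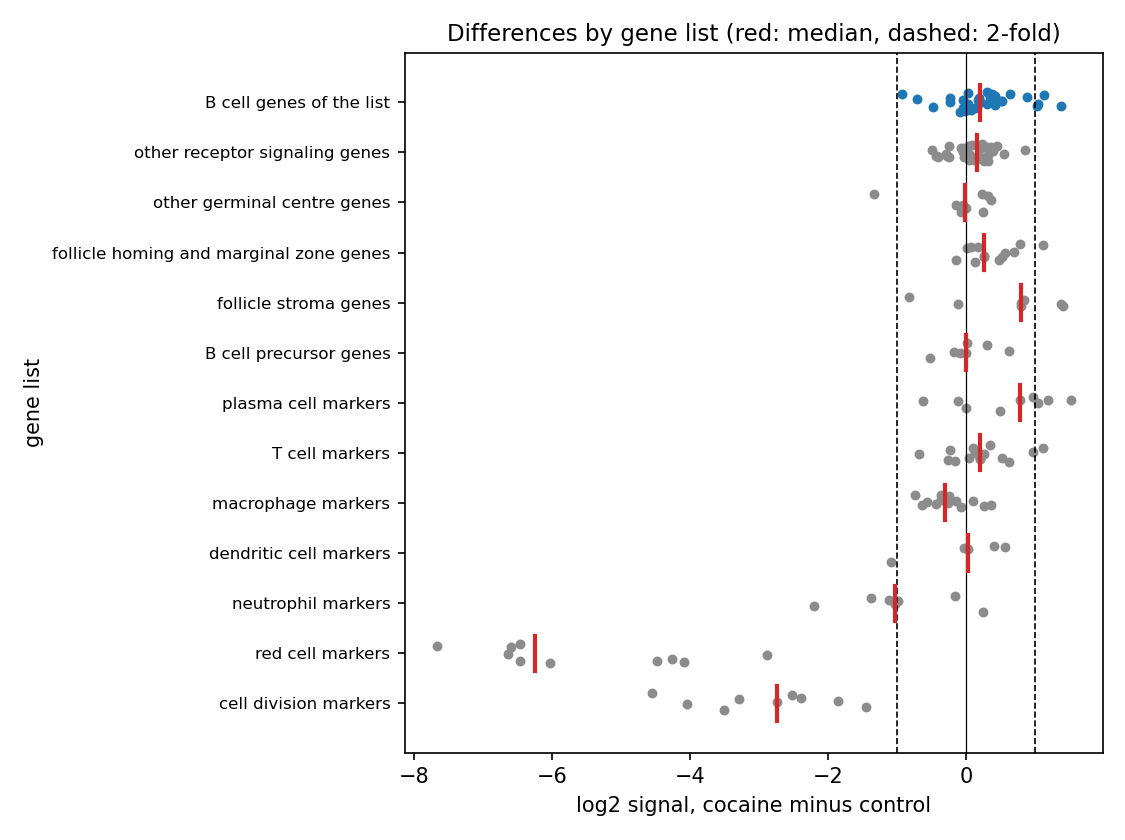
Difference of the log2 signals (cocaine minus control, horizontal axis) of each measured gene, by gene list (vertical axis), with the B cell genes in blue, the other lists in gray, the median of each list in red and dashed lines at 2-fold. The median of the B cell genes is 0.19, next to 0.15 for other receptor signaling genes and 0.19 for T cells, and far from -2.75 for cell division and -6.25 for red cells.

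Other cells of the spleen give the setting of these values. All 10 markers of red cells were past 2-fold on the lower side after cocaine, with differences from -7.67 to -2.89 and a median of -6.25. Of these, 6 lay above the highest background feature on both arrays. The lowest and the highest of these differences came from genes with a cocaine signal under this feature (6.29 and 6.60), which limits the range. Neutrophil markers had a median of -1.04 over 7 genes, of which only 2 lay above the highest background feature on both arrays. At least 2-fold lower were 4 of the 7, of which 3 had a signal above this feature on either array. Macrophage markers had a median of -0.31 over 14 genes with none past 2-fold. Dendritic cell markers had a median of 0.03 over 5 genes, 2 of them above this feature on both arrays, with 1 at least 2-fold lower. T cell markers had a median of 0.19 over 15 genes, the same as the B cell genes, and 11 of them lay above this feature on both arrays. The 1 marker at least 2-fold higher had a control signal (7.42) under this feature. Each array was hybridized with RNA of whole spleen, in which fewer cells of a type and less RNA per cell cannot be told apart. The part of the lower red cell signals in the values of the B cell genes was not tested.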

How the data were processed

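Clariom S rat arrays of spleen RNA from 1 cocaine rat and 1 control rat were used. The authors extracted RNA with TRIzol and cleaned it on RNeasy columns, with a DNase I step. The authors deposited log2 signals, with 1 value for each feature. For their background correction and normalization, the method was not given in the sources used here. The arrays each had a median of 6.97 over 23188 transcript clusters, and no scaling was added. Symbols came from the platform annotation (15049 clusters, 15037 genes, of which 10 had several clusters, no member among them). Where a gene had several, that of highest mean signal was taken. The members and all gene lists were chosen with earlier results of these data known.

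The difference of the 2 signals was taken and counted at 2-fold, the threshold of the study. No test was possible with 1 array per group. Every measured member was named. Of other lists, the 3 genes with the largest difference and all past 2-fold were named where a signal lay above the highest background feature, except for red cells, cell division, neutrophils, macrophages, T cells and dendritic cells, which are given as counts. The immunoglobulin genes listed are not analysed here, nor are some genes of the other lists. Alternatives were median and 75th percentile centring, quantile normalization, loess (span 0.3), a floor and a filter at the highest background feature, the mean over clusters, thresholds of 1.5-fold and 4-fold, the members split by breadth of expression, and the list without its largest member. The list without Cr2, Fcgr2b and Fcer2 was added after seeing the data. The scalings were tested on simulated signals with equal numbers of raised and lowered clusters, a balance that these arrays lack. Python 3.11.15, numpy 2.4.6, pandas 2.3.3, statsmodels 0.14.6 and matplotlib 3.10.9 were used.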

Additional observations from a re-analysis of the deposited data

How the results depend on the processing

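With 4 scalings, a floor or filter at the highest background feature and the mean over clusters, the median difference of the B cell genes ran from 0.10 (loess correction) to 0.29 (quantile normalization), 3 or 4 members were past 2-fold on the higher side and none on the lower. Of the members at least 2-fold higher, only Syk fell within 2-fold, with the loess correction (0.89, leaving 3 members). With this correction the difference of Cd83 was 1 in rounded values, at the 2-fold limit. In rounded values, the sign of 6 members turned with a scaling (Ptpn6, Plcg2, Bcl6, Pax5, Cd37 and Ikzf3), all with differences near 0. Cd40 (0.02) is not counted among them, but its difference rounded to -0 after the loess correction, which lies just below 0. The scalings moved the median of all named genes by at most 0.094, with 75th percentile centring. At 1.5-fold, 6 members were higher and 2 lower, and at 4-fold the counts were 0 and 0. The median was 0.30 for the members of mostly B cell expression and 0.16 for those shared with other leukocytes, a difference that was not tested, and 0.19 without Bank1. It was also 0.19 without Cr2, Fcgr2b and Fcer2, an omission of 3 genes that by its construction can hardly move a median. No paired analysis was possible because each group holds 1 array, and for the same reason no array could be left out. All values are limited in precision by the single array behind each.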
